A study of Mus musculus with 4 samples.

Results

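Nuclear receptor genes were followed in the liver of 4 ABCA1-transgenic mice, with 1 array per mouse. The family was taken as 41 genes, which leave out the REV-ERB receptors, CAR and PXR. Of these, 38 had at least 1 probe set annotated to them alone, 65 probe sets in all, among 12393 genes and 22626 probe sets of the series. Nr2e1, Nr2e3 and Nr3c2 were not analysed here. Where a gene had several probe sets, the one of highest mean was used. The 4 samples were male C57BL/6 mice of 5 to 6 months on the NIH36 diet, labelled ABCA1-TG and called mouse 1 to mouse 4 after the replicate number in their titles. The series title gives the LDL receptor background as -/-, and the sample descriptions give it as +/-. The species and promoter of the transgene are not given in the sources used here. The design names wild-type controls, whose arrays were not analysed here. The values below therefore describe transgenic livers and the differences among them.

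Nuclear receptors are transcription factors, most of them switched on by a small lipid-soluble ligand such as a fatty acid, bile acid, oxysterol, retinoid, thyroid hormone or steroid. A zinc finger domain reads the half-site AGGTCA or a relative of it, and many members bind as a pair with a retinoid X receptor. In hepatocytes the family couples these ligands to bile acid, lipid, glucose and drug metabolism, with HNF4-alpha holding up much of the hepatocyte program.

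Start-site windows of 4 of the 5 receptors with the highest signals are shown as examples. Of Rxra, Nr1h4 and Nr5a2, only windows that hold AGGTCA, the half-site the family reads, on either strand were printed. That 3 of the 5 printed windows hold it therefore follows from this choice. Rora, also among the 5 highest signals, had no window with it and is not shown. RefSeq sequences of GRCm38.p6 run from 250 bases before to 50 bases after a start site, were available for 34 of the 38 genes in 55 windows, and are printed 5′ to 3′ on the strand of the gene. Capitals mark AGGTCA or, where the match is on the opposite strand, TGACCT. Hnf4a has 2 such windows, 40298 bases apart, at chr2:163506607-163506906 and chr2:163546905-163547204, both on the plus strand. The downstream promoter is the main one of adult liver, and the upstream one is known from pancreas and other tissues. Neither window holds the hexamer.
Hnf4a upstream window: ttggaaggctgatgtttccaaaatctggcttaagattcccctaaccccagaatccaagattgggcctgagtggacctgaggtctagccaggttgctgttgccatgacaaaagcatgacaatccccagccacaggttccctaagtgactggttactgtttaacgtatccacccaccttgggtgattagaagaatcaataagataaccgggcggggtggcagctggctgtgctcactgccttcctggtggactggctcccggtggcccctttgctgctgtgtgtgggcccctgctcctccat
Hnf4a downstream window: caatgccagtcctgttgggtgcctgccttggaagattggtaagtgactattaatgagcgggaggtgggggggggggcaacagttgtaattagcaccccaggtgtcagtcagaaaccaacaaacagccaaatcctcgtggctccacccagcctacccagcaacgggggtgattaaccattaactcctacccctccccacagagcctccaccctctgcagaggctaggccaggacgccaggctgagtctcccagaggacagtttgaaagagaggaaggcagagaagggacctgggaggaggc
The window of the retinoid X receptor gene Rxra at chr2:27709042-27709341, plus strand, holds the hexamer at 2 places, starting at bases 164 and 203 of the window.
Rxra window: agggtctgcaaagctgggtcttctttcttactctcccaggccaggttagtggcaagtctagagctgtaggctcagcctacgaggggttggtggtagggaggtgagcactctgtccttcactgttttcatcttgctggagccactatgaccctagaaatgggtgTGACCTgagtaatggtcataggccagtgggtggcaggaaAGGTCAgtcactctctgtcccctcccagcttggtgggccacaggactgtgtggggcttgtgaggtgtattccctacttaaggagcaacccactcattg
The bile acid receptor gene Nr1h4 has 1 match, starting at base 37 of chr10:89506609-89506908, minus strand, and the Nr5a2 window at chr1:136960399-136960698, minus strand, has 1 starting at base 187.
Nr1h4 window: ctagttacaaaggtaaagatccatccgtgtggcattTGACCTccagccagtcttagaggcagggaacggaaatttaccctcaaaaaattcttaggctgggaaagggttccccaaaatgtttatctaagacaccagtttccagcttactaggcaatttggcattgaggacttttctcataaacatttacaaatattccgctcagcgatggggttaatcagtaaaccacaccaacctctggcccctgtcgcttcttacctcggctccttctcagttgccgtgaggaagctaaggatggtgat
Nr5a2 window: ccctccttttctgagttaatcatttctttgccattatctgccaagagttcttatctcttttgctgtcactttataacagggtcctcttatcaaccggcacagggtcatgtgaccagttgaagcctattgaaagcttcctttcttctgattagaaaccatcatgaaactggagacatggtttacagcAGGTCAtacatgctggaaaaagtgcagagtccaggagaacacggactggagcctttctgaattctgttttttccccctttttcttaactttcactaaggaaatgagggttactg

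The hexamer was found in 11 of the 55 receptor windows (20%), belonging to 10 genes, and in 16.3% of all 32851 windows of the same length, counting both strands. Longer arrangements of it are known as response elements, and 0 of the 55 windows held the hexamer as a direct repeat spaced by 1 or by 4 bases or as an inverted repeat spaced by 1 base. These were rare everywhere, with shares of 0.0396%, 0.0152% and 0.00913% of all windows. The cAMP response element TGACGTCA was in 1 receptor window (1.82%), that of Nr6a1, and in 1.79% of all windows. The receptor windows had a median GC content of 59.33%, against 52.67% over all windows. A match describes letters in these windows and is not a bound site.

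The 4 arrays had median intensities of 278, 302, 305 and 267 in mice 1 to 4. Abca1 measured 12.67, 12.68, 12.92 and 13.00 log2 on its brightest probe set in mice 1 to 4. Its dimmer probe sets ordered the mice otherwise. They measured 8.57, 9.07, 9.06 and 8.78, highest in mouse 2, and 7.90, 7.84, 8.39 and 8.09, highest in mouse 3. Transcripts of other tissues differed between the livers, as the sum of intensities over marker genes. For 13 of 13 skeletal muscle genes it was 1454 in mouse 1 and 11024, 7530 and 10160 in mice 2 to 4. For 9 of 11 exocrine pancreas genes it was 7159 in mouse 2 and 1979, 2158 and 3153 in mice 1, 3 and 4. For 7 of 9 bile duct genes it was 823 in mouse 1 and 1851, 1857 and 1434 in mice 2 to 4. Hepatocyte markers, 7 of 10 measured, were bright in each liver, with sums of 369549 to 406679. In whole tissue, fewer cells of a type and less RNA per cell cannot be told apart.

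Hnf4a, Rxra, Nr1h4, Rora and Nr5a2 had the 5 highest array signals of the family. The signal of a probe set also depends on how well it binds, so a percentile among the 12393 genes ranks signals and not transcript numbers. The family ran from the 2.01st percentile (Ppard) to the 98.5th (Hnf4a), with a median of 43.0. A mean log2 intensity of at least 8 was reached by 20 of 38 receptors (52.6%) and by 59.8% of all genes. Receptors had a median SD over the 4 livers of 0.25 log2, and all genes one of 0.26.

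**Figure D1:**
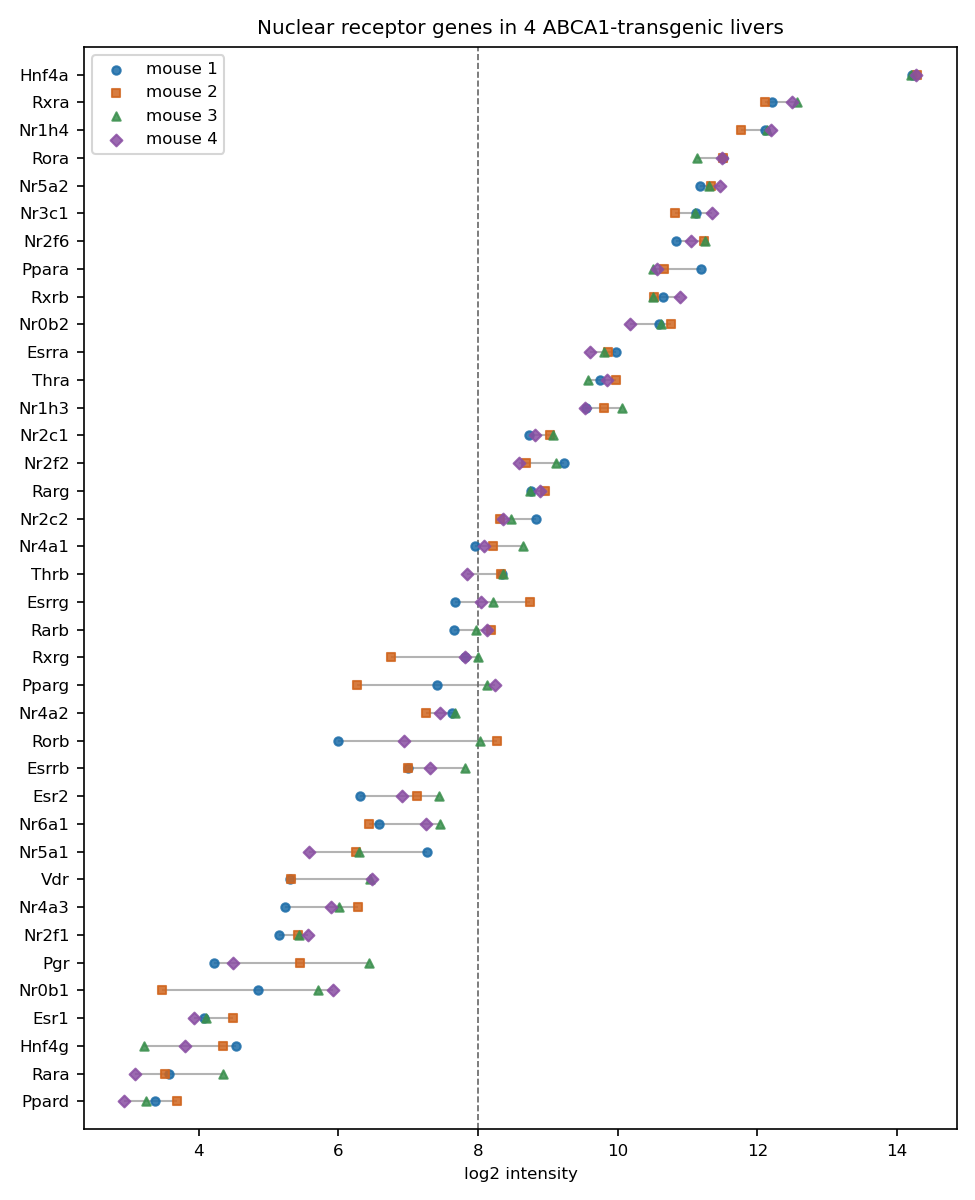
Log2 intensity (x axis) of the 38 nuclear receptor genes (rows, ordered by mean) in each of the 4 ABCA1-transgenic livers. Points are mice, grey lines join the lowest and highest mouse, and the dashed line marks a log2 intensity of 8, which 20 genes reach on average.

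Spread was tested by setting each probe set's variance between the 4 mice against a prior variance for probe sets of the same mean level, with limma. Relative spread is the SD of a gene divided by that prior SD. None of the 38 receptors passed after Benjamini-Hochberg adjustment over all 22626 probe sets (lowest adjusted p = 0.977), and 0 of all probe sets passed (0%). At an unadjusted p under 0.05 there were 839 probe sets (3.71%) in all. On the scale of 1 probe set per gene, 2 of 38 receptors (5.26%), Rorb and Pparg, had an unadjusted p under 0.05, and so did 459 of 12393 genes (3.7%). The median relative spread was 0.98 for the receptors and 0.96 for all genes, and 19 of 38 receptors (50%) lay above 1, against 46.7% of all genes. Among those with a mean of at least 8, it was 1.06 for the 20 receptors and 0.93 for the 7407 genes. Because the prior came from the same 4 arrays, these counts do not measure how alike the animals were. The 95% interval of an SD from 4 arrays runs from 0.57 to 3.73 times its value.

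**Figure D2:**
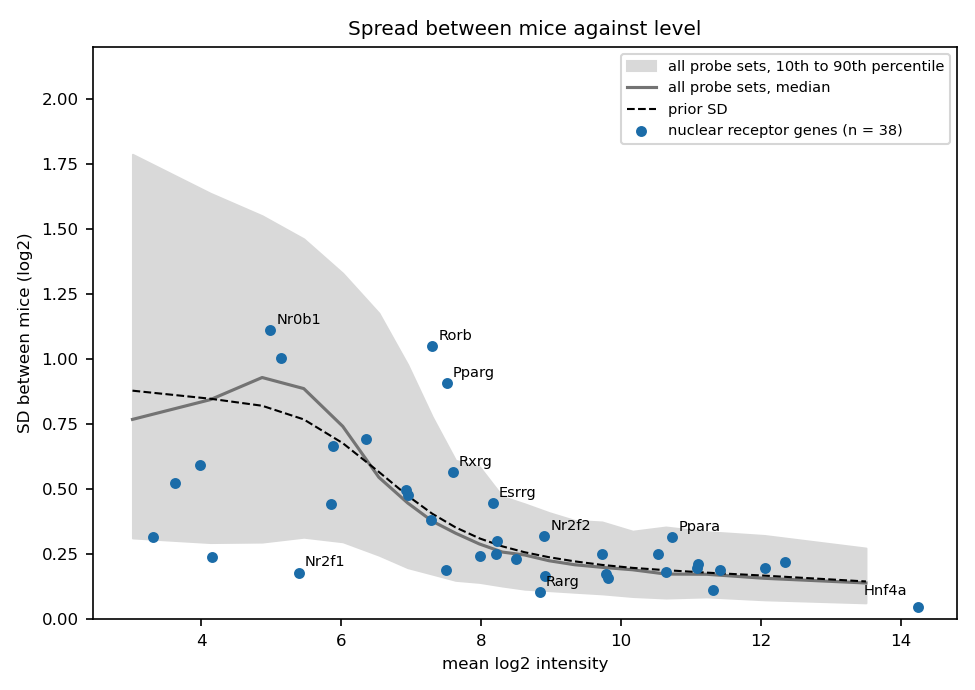
SD between the 4 mice (y axis, log2) against mean log2 intensity (x axis). Blue points are the 38 nuclear receptor genes, the grey band and line give the 10th to 90th percentile and the median of all probe sets in 20 bins of level, and the dashed line is the prior SD. Rorb and Pparg lie above the band, and Hnf4a has the smallest SD of the family, 0.05.

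The fatty acid receptors of the PPAR group included 2 of the 3 widest relative spreads. Ppara, the receptor that drives fatty acid oxidation in the fasting liver, had log2 intensities of 11.19, 10.67, 10.51 and 10.56, in the order of mouse number. Mouse 1 stood above the other 3, which lay within 0.16 of each other, and its range was 1.61-fold. The SD of 0.32 was 1.69 times the prior (limma, adjusted p = 0.977), and it was 0.08 without mouse 1. Pparg, the adipogenic receptor, measured 7.41, 6.27, 8.13 and 8.24 in mice 1 to 4. Its lowest value was in mouse 2, 3.91-fold below the highest, and its SD of 0.91 was 2.44 times the prior (unadjusted p = 0.044 and adjusted p = 0.977, limma). Without mouse 2 the SD was 0.45. Adipocyte markers, 6 of 8 measured, had summed intensities of 2203, 2555, 1427 and 2486 in mice 1 to 4, and among their defining genes Adipoq, Lep and Retn averaged under a log2 intensity of 8. Adipoq, Lep, Retn and Fabp4 were highest in mouse 2, where Pparg was lowest. Plin4 and Cidec were highest in mouse 4, where Pparg was highest. The part of adipocyte transcripts in the Pparg values was not tested. Ppard, the widely expressed member, had the lowest signal of the family, at 3.31 ± 0.32 (SD, n = 4).

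Both sterol-sensing receptors had clear signals. Nr1h4 encodes FXR, the bile acid receptor, and measured 12.11, 11.77, 12.15 and 12.20 in mice 1 to 4. Mouse 2 was the low one, and the SD of 0.20 was 0.05 without it. Nr1h3 encodes LXR-alpha, the oxysterol receptor that induces Abca1 and Srebf1. It measured 9.55, 9.80, 10.06 and 9.54, highest in mouse 3, with an SD of 0.25 (0.15 without mouse 3). Macrophages also express Nr1h3, and the summed intensity of 10 of 11 macrophage markers was 34266, 33497, 42497 and 40448 in mice 1 to 4. The part of macrophages in the Nr1h3 values was not tested. Nr0b2 encodes SHP, a receptor-like corepressor without a DNA-binding domain that FXR induces. It measured 10.59, 10.76, 10.62 and 10.18, lowest in mouse 4, while the FXR gene itself was lowest in mouse 2. Without mouse 4 the SD of Nr0b2 was 0.09 in place of 0.25. Nr0b1, the other member of that kind and known from adrenal and gonad, averaged 4.99 with an SD of 1.11, the largest of the family at a level where spreads are wide (relative spread 1.37).

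Of the retinoid X receptors, the shared partners of many members, Rxra measured 12.21, 12.11, 12.57 and 12.49 in mice 1 to 4. Mice 3 and 4 were the high ones, and the range was 1.38-fold. Rxrb measured 10.64, 10.52, 10.51 and 10.90, highest in mouse 4, with an SD of 0.18 (0.07 without mouse 4). On these probe sets the arrays thus ordered the mice differently for the 2 genes. The second Rxra probe set, at 9.24, 9.82, 9.81 and 10.09, was highest in mouse 4, as Rxrb was, and lowest in mouse 1. Rxrg, best known from muscle and brain, averaged 7.60 ± 0.56 (SD, n = 4) and is described with the values that stood far from the rest. It was lowest in mouse 2, at 6.76, where the muscle sum above was highest. In mouse 1, where that sum was lowest, Rxrg measured 7.81. The part of muscle transcripts in the Rxrg values was not tested.

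On the brightest probe set of each gene, receptors for retinoic acid, thyroid hormone and vitamin D had no member with a relative spread above 1. Rarg, a retinoic acid receptor, measured 8.76, 8.96, 8.75 and 8.89 in mice 1 to 4, an SD of 0.10 and 0.43 times the prior. These values lay within 1.16-fold of each other. The second Rarg probe set, of mean 4.67, measured 3.97, 6.74, 4.42 and 3.54, with a relative spread of 1.72. Thra, the thyroid hormone receptor of heart and brain, measured 9.75, 9.98, 9.57 and 9.85. Its second probe set ran otherwise, at 7.76, 7.29, 7.86 and 7.42, and the mean over both had an SD of 0.06 in place of 0.17. Thrb, the form that carries most thyroid hormone action in liver, measured 8.34, 8.32, 8.36 and 7.84, so that mice 1 to 3 lay together and mouse 4 lay below them. The SD of Thrb was 0.25, and 0.02 without mouse 4. Rara, Rarb and Vdr averaged 3.63, 7.98 and 5.89, below a log2 intensity of 8. Their SDs were 0.52, 0.24 and 0.66. The second Vdr probe set, of mean 5.67, had a relative spread of 1.88.

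Among steroid receptors, the glucocorticoid receptor gene Nr3c1 was the 1 with a mean of at least 8. It measured 11.12, 10.83, 11.11 and 11.35 in mice 1 to 4, highest in mouse 4 and lowest in mouse 2. Its SD of 0.21 was 0.13 without mouse 2. Esr1, Esr2 and Pgr, the oestrogen and progesterone receptor genes, averaged 4.15, 6.95 and 5.15, and 1 probe set stood for each. Esr1 is a known hepatocyte gene, and its single probe set lay at the 4.95th percentile of signals. The oestrogen-related receptors, which act with PGC-1 coactivators on mitochondrial genes, gave 2 members above 8. Esrra measured 9.97, 9.87, 9.80 and 9.60 in mice 1 to 4, with an SD of 0.16 (0.09 without mouse 4). Esrrg measured 7.67, 8.74, 8.21 and 8.04, a 2.11-fold range with mouse 1 lowest and mouse 2 highest, and an SD of 0.45 (0.28 without mouse 2). Muscle also expresses Esrrg, and the muscle sum above was lowest in mouse 1 and highest in mouse 2 as well. Mice 3 and 4 ran otherwise, with Esrrg at 8.21 and 8.04 and muscle sums of 7530 and 10160. The part of muscle transcripts in the Esrrg values was not tested. Esrrb averaged 7.28 ± 0.38 (SD, n = 4).

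Hnf4a, the master regulator of hepatocyte genes, measured 14.22, 14.29, 14.19 and 14.28 in mice 1 to 4. All 4 lay within 1.07-fold of each other, and the SD of 0.05 was 0.34 times the prior on this probe set. Its other 3 probe sets had SDs of 0.17, 0.29 and 0.37, and the mean over the 4 had an SD of 0.18. Nr2f6, which encodes the repressor EAR2, measured 10.84, 11.23, 11.26 and 11.05, lowest in mouse 1 (SD 0.19, and 0.12 without mouse 1). Nr2f2 encodes COUP-TFII, a factor of venous endothelium and mesenchyme that hepatocytes also express. It measured 9.24, 8.68, 9.12 and 8.59, so mice 1 and 3 lay above mice 2 and 4. Endothelial markers, 11 of 11 measured, had summed intensities between 20613 and 22237, lowest in mouse 1, where Nr2f2 was highest on this probe set. On its dimmer probe sets Nr2f2 was highest in mouse 4 (mean 7.71) and in mouse 3 (mean 6.05). The part of endothelial transcripts in the Nr2f2 values was not tested. The testicular receptors Nr2c1 and Nr2c2, which are broadly expressed repressors, both had modest spreads. Nr2c1 measured 8.72, 9.03, 9.07 and 8.82, and Nr2c2 measured 8.83, 8.32, 8.47 and 8.36. Without mouse 1 the SD of Nr2c2 was 0.08 in place of 0.23. Hnf4g and Nr2f1 averaged 3.98 and 5.40, and Nr2f1 had the smallest relative spread of the family, 0.23.

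Nr5a2 encodes LRH-1, which supports bile acid synthesis genes in liver and digestive enzyme genes in exocrine pancreas. It measured 11.18, 11.33, 11.31 and 11.46 in mice 1 to 4, with an SD of 0.11 and 0.64 times the prior. The pancreas sum was highest in mouse 2, Nr5a2 was highest in mouse 4 on this probe set, and its dimmest probe set was highest in mouse 2, at 5.76, 7.26, 5.27 and 5.67 in mice 1 to 4. The part of pancreas transcripts in these values was not tested. The adrenal and gonadal gene Nr5a1 and the germ cell gene Nr6a1 averaged 6.35 and 6.93. The NR4A receptors are immediate early genes with no known classical ligand. Nr4a1 measured 7.96, 8.21, 8.65 and 8.09, highest in mouse 3, with an SD of 0.30 (0.13 without mouse 3). Nr4a2 and Nr4a3 averaged 7.50 and 5.85, with SDs of 0.19 and 0.44.

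The ROR receptors, activators of clock and metabolic genes, differed in spread. Rora measured 11.51, 11.51, 11.13 and 11.50 in mice 1 to 4. Mouse 3 lay below the other 3, and the SD was 0.19 with all mice and 0.0093 without mouse 3. Rorb, best known from brain and retina, measured 5.99, 8.27, 8.02 and 6.94, a 4.86-fold range with mice 2 and 3 high and mouse 1 lowest. Its SD of 1.05 was 2.59 times the prior, the largest relative spread of the family (unadjusted p = 0.035 and adjusted p = 0.977, limma), and was 0.71 without mouse 1. The muscle and bile duct sums above were also lowest in mouse 1. Their part in the Rorb values was not tested.

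**Figure D3:**
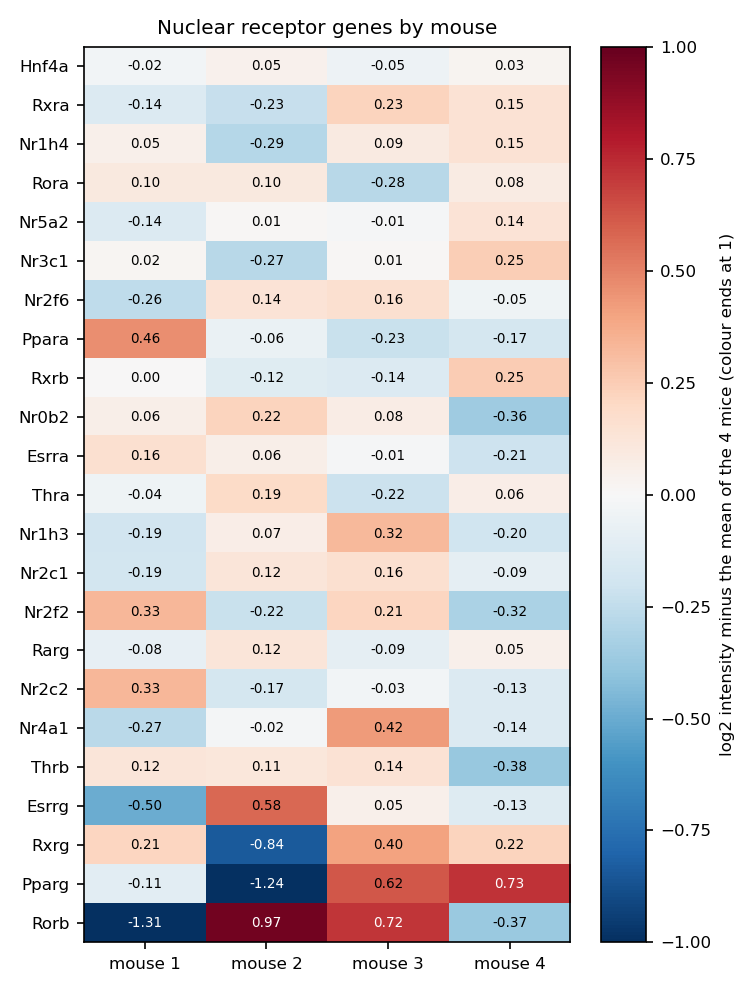
Log2 intensity minus the mean of the 4 mice for the 20 receptor genes with a mean of at least 8 and for Rxrg, Pparg and Rorb (rows), by mouse (columns), with the value printed in each cell. Mouse 1 is high for Ppara, mouse 3 is low for Rora, mouse 4 is low for Thrb and Nr0b2, and Hnf4a has the smallest deviations of the genes shown.

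Which mouse was highest among the strong receptors depended on the scaling. Among the 20 receptors with a mean of at least 8, mice 1 to 4 held the highest value for 5, 5, 6 and 4 genes and the lowest value for 5, 4, 6 and 5. With array medians made equal, the highest counts were 5, 2, 4 and 9 and the lowest counts 5, 5, 7 and 3, and mouse 4 was then highest for the 6 brightest, Hnf4a to Nr3c1. Over all 38 receptors mouse 3 was highest for 13 (34.2%) and mouse 1 lowest for 12 (31.6%). Over all 12393 genes mouse 3 was highest for 33.5% and mouse 1 lowest for 28.9%.

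Different probe sets of a receptor gene often gave very different signals. For the 18 receptors with more than 1, the gap between the brightest and dimmest mean ran from 0.22 log2 (Vdr) to 5.80 (Hnf4a). The 4 probe sets of Hnf4a averaged 14.25, 11.14, 10.90 and 8.45, and those of Nr5a2 averaged 11.32, 9.88, 9.42 and 5.99. The probe sets agreed on the order of the mice for some genes and not for others. Both Nr2f6 probe sets were lowest in mouse 1 and highest in mouse 3, with 10.39, 10.56, 10.98 and 10.97 on the second. For Rora the low value of mouse 3 recurred on the second probe set, at 10.20, 10.17, 9.75 and 10.02 in mice 1 to 4. On the third, of mean 7.31, mouse 3 was not the lowest. For Nr3c1 mouse 4 was highest on the brightest probe set and lowest on the other 2, with 9.93, 10.39, 10.54 and 9.58 on the second.

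**Figure D4:**
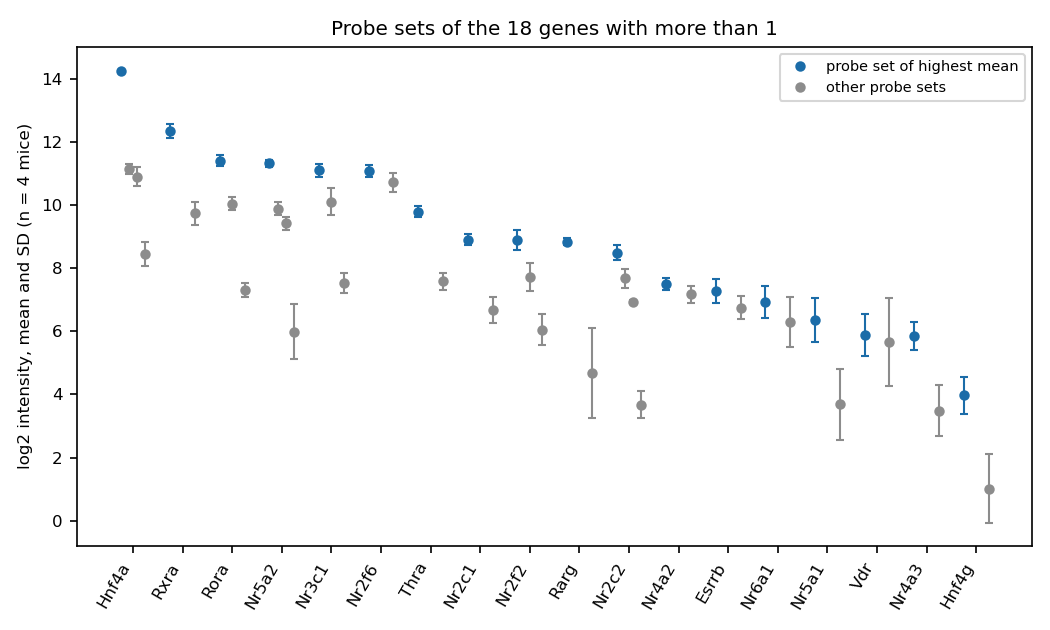
Mean log2 intensity and SD over the 4 mice (y axis) of each probe set of the 18 receptor genes with more than 1 (x axis, ordered by the brightest). Blue marks the probe set of highest mean and grey the others. The gap within a gene reaches 5.80 for Hnf4a.

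A second test asked whether the probe sets of a gene share a difference between mice beyond their disagreement, with residual variances moderated by limma. Of 4956 genes with at least 2 probe sets, 19 passed after Benjamini-Hochberg adjustment (0.383%). Of the 18 receptors tested, 0 passed, with adjusted p from 0.545 to 0.988. The smallest unadjusted p was 0.049, for Hnf4a, whose probe sets shared an SD of 0.18. It was 1 of 18 receptors (5.56%) under 0.05, against 9.12% of all genes tested.

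Genes known as targets were set beside their receptor as the log2 difference of each mouse from the mean of the other 3, taking the median over targets and leaving receptors out of the target lists. With 4 mice no relation between a receptor and its targets was tested. The lists share genes, so their medians are not separate observations. Cyp7a1 is on the LXR, FXR and thyroid hormone receptor lists, and Cyp8b1 on the FXR, HNF4-alpha and ROR lists. Tat is on the HNF4-alpha and glucocorticoid lists. Ppara was 0.62 above the other mice in mouse 1, where the median of 12 PPAR-alpha targets was 0.64 above and 11 of 12 were higher. In mouse 3 Ppara was at -0.30 and its targets at -0.52, with 2 of 12 higher. In mouse 4 they went apart, with Ppara at -0.23 and the targets at 0.37. Singly, 5 of the 12 targets were highest in mouse 1 and 7 in mouse 4. The widest of these targets were Cyp4a14, a fatty acid hydroxylase gene, at 14.08, 13.41, 11.78 and 13.55 in mice 1 to 4, and Acot3, a thioesterase gene, at 10.56, 10.32, 8.48 and 9.77. Creb3l3, a liver transcription factor gene, was the steadiest, at 14.21 ± 0.08 (SD, n = 4). Without mouse 4 the targets were 0.95 above in mouse 1, and without mouse 3 they were at -0.42 in mouse 2 and 0.14 in mouse 4. The gap in mouse 4 widened on omitting mouse 1, with Ppara at -0.03 and the targets at 0.70, 12 of 12 being higher.

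**Figure D5:**
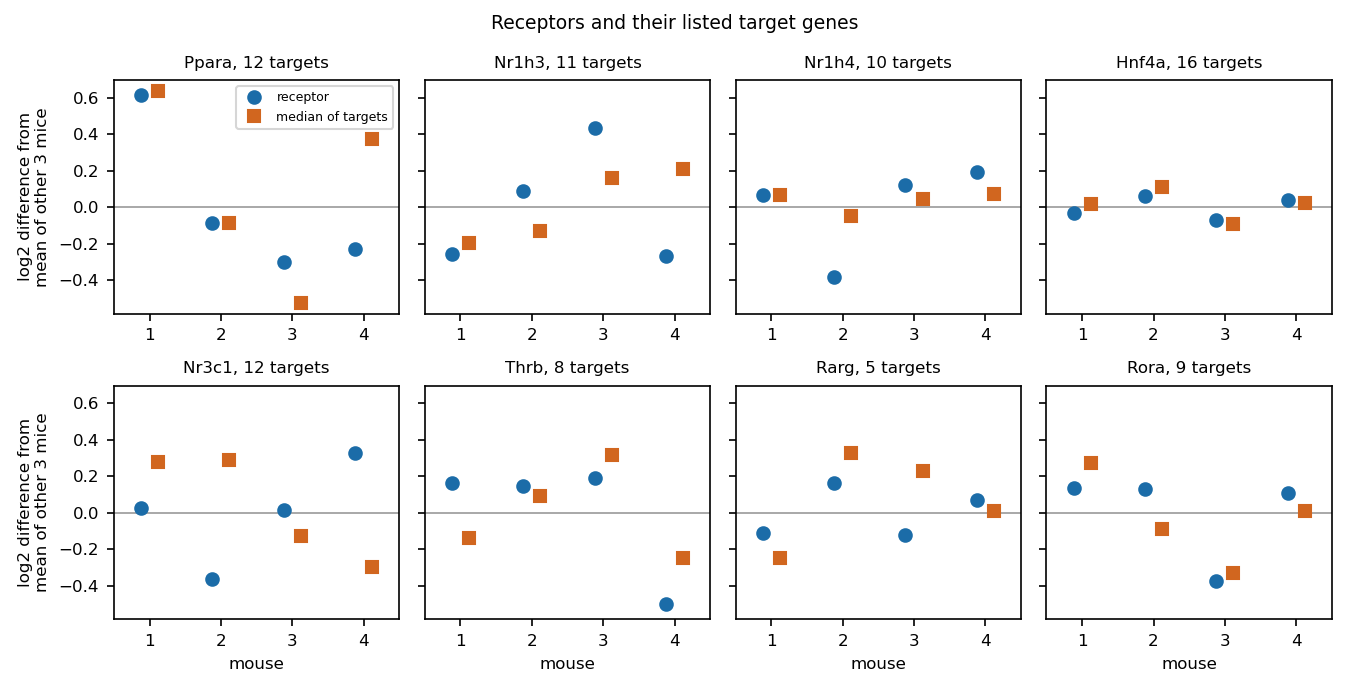
Log2 difference of each mouse (x axis) from the mean of the other 3 mice (y axis) for 8 receptor genes (circles) and for the median of their listed target genes (squares). Ppara and the median of its 12 targets are both highest in mouse 1, and Rora and the median of its 9 targets are both lowest in mouse 3.

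Rora was at -0.37 in mouse 3 and the median of 9 ROR targets was at -0.33, with 3 of 9 higher and 5 of 9 lowest there. Npas2, a clock gene with low signals, measured 6.33, 3.29, 3.05 and 5.79 in mice 1 to 4, and Clock was the steadiest at 9.44 ± 0.10 (SD, n = 4). Hsd3b5, a steroid dehydrogenase gene, ran the other way, with 13.11 in mouse 3 and 10.92, 11.96 and 12.10 in mice 1, 2 and 4. Without mouse 1 the target median of mouse 3 was -0.17. Nr1h3 was at 0.43 in mouse 3 and its 11 other LXR targets at 0.16, with 8 of 11 higher. In mouse 4 Nr1h3 was at -0.27 and the targets at 0.21. The 11 include Abca1, the gene these mice carry as a transgene, so its signal need not follow LXR. On its brightest probe set Abca1 was at 0.14 in mouse 3 and 0.24 in mouse 4. The target medians were not recomputed without it. With array medians made equal, the targets were at 0.05 in mouse 3 and 0.35 in mouse 4. They were at 0.08 and 0.02 in these mice without mouse 1, at 0.12 in mouse 4 without mouse 2, and at 0.26 in mouse 3 without mouse 4. Srebf1, the lipogenic factor gene, measured 13.44 in mouse 3 and 11.54, 12.01 and 11.65 in mice 1, 2 and 4. Cyp7a1, whose enzyme sets the rate at which cholesterol is turned into bile acids, was at 13.88 in mouse 3 and at 12.80, 12.74 and 12.54 in mice 1, 2 and 4. Abcg8, a sterol exporter gene, varied least, at 10.71 ± 0.13 (SD, n = 4).

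For Nr3c1 the order of the mice turned with the probe set. On the brightest the receptor was at -0.36 in mouse 2 and 0.33 in mouse 4, while the 12 glucocorticoid targets were at 0.29 and -0.30 there. On its other 2 probe sets mouse 4 was lowest, as described above. The targets were at 0.13 in mouse 2 without mouse 3, and in mouse 4 at -0.19 without mouse 2 and -0.16 with array medians made equal. Lcn2, an acute phase gene, measured 10.56, 10.46, 8.93 and 8.54 in mice 1 to 4, Dusp1, a phosphatase gene, 11.19 ± 0.73 (SD, n = 4), and Pck1, a gluconeogenic enzyme gene, 13.70 ± 0.12 (SD, n = 4). The 16 HNF4-alpha targets had medians from -0.09 in mouse 3 to 0.11 in mouse 2, and from -0.21 in mouse 3 to 0.16 in mouse 4 with array medians made equal. Their median relative spread was 1.12, against 0.34 for Hnf4a on its brightest probe set. On its dimmer probe sets Hnf4a had relative spreads of 0.95, 1.60 and 1.37. Pklr and Apoa2 were the widest of these targets, at 11.31 ± 0.28 and 14.88 ± 0.26, and F2 was the steadiest, at 14.41 ± 0.06 (SD, n = 4 each). The 10 FXR targets ran from -0.05 in mouse 2, where Nr1h4 was at -0.38, to 0.07 in mouse 4, and from -0.14 to 0.21 in these mice with array medians made equal. This list was not split into genes that FXR induces and genes that it represses, so opposite moves can cancel in the median. Slc51a, a bile acid transporter gene, measured 7.14, 6.47, 6.08 and 7.54, and Slc27a5, a bile acid ligase gene, 14.91 ± 0.07 (SD, n = 4).

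Thyroid hormone receptor targets were at 0.32 in mouse 3 and -0.25 in mouse 4, where Thrb was at 0.19 and -0.50. In mouse 1 they went apart, with Thrb at 0.16 and the targets at -0.14, 1 of 8 being higher. Without mouse 4, Thrb was at -0.0041, -0.0236 and 0.0278 in mice 1 to 3, and the targets at -0.18, 0.0015 and 0.26. Thra was at -0.29 in mouse 3 and 0.08 in mouse 4 on its brighter probe set. With array medians made equal the targets were at 0.20 in mouse 3 and -0.11 in mouse 4. Thrsp, a lipogenic gene and a classic thyroid hormone target, measured 13.94, 15.11, 15.01 and 14.42 in mice 1 to 4 and was the 1 gene of the target lists that passed the shared probe set test (SD shared by 2 probe sets 0.59, adjusted p = 0.029, limma moderated variance). No gene passed that test without mouse 3, or without probe sets whose names mark shared sequence. Klf9, a hormone-induced transcription factor gene, was the steadiest of this list at 13.81 ± 0.14 (SD, n = 4). The 5 retinoic acid targets other than Rarb had medians of -0.25 in mouse 1 and 0.33 in mouse 2, and the mouse 2 value was 0.15 without mouse 4 and 0.11 after quantile normalization. By gene, mouse 2 was at 1.07 (Cyp26a1), 0.77 (Crabp2), 0.33 (Stra6), 0.05 (Tgm2) and -0.04 (Dhrs3). The median there was thus the value of Stra6, a gene of low signal that averaged 4.92. Cyp26a1, which clears retinoic acid, measured 10.26, 11.25, 9.83 and 10.45, and Crabp2, a retinoic acid carrier gene, averaged 2.76, too low to order the mice. Tgm2, a transglutaminase gene, measured 12.75 ± 0.14 (SD, n = 4).

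Of 19 coregulator genes measured, 0 had an unadjusted p under 0.05, and their median relative spread was 0.94. Ncoa3, a coactivator gene, measured 8.31, 9.11, 8.95 and 8.14 in mice 1 to 4, Ppargc1a, which encodes PGC-1-alpha, 8.93, 9.20, 8.16 and 8.93, and Med1, a Mediator subunit gene, 10.21 ± 0.05 (SD, n = 4). Of 7 steroid receptor chaperone genes 1, Fkbp5, had an unadjusted p under 0.05, where 3.7% of all genes had one. The widest were Fkbp5, a glucocorticoid-induced cochaperone gene, at 12.79, 12.63, 11.57 and 12.29, and Hsp90aa1, at 13.60, 14.09, 13.35 and 13.60, while Stub1 measured 10.93 ± 0.08 (SD, n = 4). Among 16 genes of ligand metabolism 1 had an unadjusted p under 0.05. The retinaldehyde dehydrogenase gene Aldh1a1 measured 15.13 ± 0.04 (SD, n = 4), and Cyp27b1, the vitamin D activating enzyme gene of kidney, averaged 4.73 ± 0.52. Of the 12 immediate early genes listed beside the NR4A group, 3 reached an unadjusted p under 0.05 (Myc, Egr1 and Dusp1), again beside 3.7% of all genes. Atf3 measured 5.25, 7.06, 7.96 and 6.87 and Myc 7.70, 9.44, 9.33 and 9.24 in mice 1 to 4, both lowest in mouse 1. Egr1, named after its values were seen, was highest in mouse 1, at 10.35, 9.08, 9.83 and 9.24, and Dusp1 lowest in mouse 3, while Junb measured 8.32 ± 0.08 (SD, n = 4). Among the target lists, 5 of 12 PPAR-alpha and 5 of 12 glucocorticoid targets had one, with median relative spreads of 2.07 and 1.87. So did 2 of 8 thyroid hormone receptor targets, 1 of 9 ROR targets and 0 of 16 HNF4-alpha targets. Counting the receptor gene on each of these lists, it was 2 of 12 LXR, 1 of 11 FXR and 1 of 6 retinoic acid targets. After adjustment over all probe sets 0 genes of these lists passed the spread test of limma.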

How the data were processed

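The values are 1 linear signal intensity per probe set and array, as deposited by the authors, for 22690 probe sets. RMA, with no version, is the tool in the submitters' processing notes. The values are linear, reach down to 0.1, and have a mean of 1000 on every array after trimming 2% at each end, which differs from usual RMA output. Background treatment and probe summary are not given in the sources used here. RiboAmp amplification of 2 ug total RNA, per the labels' protocols, primes on poly(A) and favours transcript 3′ ends.

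Log2 was taken of the intensities without a pseudocount or further normalization, and 64 control probe sets were left out. Names came from the platform annotation, where 20380 probe sets had 1 symbol, 691 several and 1555 none. Of the singly named rows of that annotation, 20364 matched RefSeq by Entrez identifier, which changed 0 symbols. Tests used limma 3.58.1 in R 4.3.3, with upper-tail F-tests and Benjamini-Hochberg adjustment at 0.05, and were tested on simulated data. The number of arrays limits the precision.

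The family, the 12 pathway and 9 cell type lists (208 of 236 genes measured) and the tests were chosen with earlier results of these data known. Each receptor with a mean log2 intensity of at least 8 is given in full, as are the 3 of largest relative spread and those with an unadjusted p under 0.05. Of each pathway list, the 2 widest genes and the steadiest are named. Alternatives were other scalings, a floor of 64, a filter on low levels, other probe set choices, another prior and leaving out each mouse. Samples are biological replicates by their labels, which add nothing on litters or batches.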

Additional observations from a re-analysis of the deposited data

Results flagged for a closer look

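A value was marked where the gap between the highest or lowest mouse and its neighbour took up a larger share of the range of the 4 mice than Dixon's 95% critical value. Chance marks about 1 in 20 genes, and 3 of the 38 receptors (7.89%) and 4 of the 61 other named genes (6.56%) were marked. Over all 12393 genes the share was 5.91%, and over the measured list genes that are not receptors it was 9.27%. Rora had a gap of 0.953 of its range, with mouse 3 at 11.13 and mice 1, 2 and 4 at 11.51, 11.51 and 11.50. Thrb had 0.934, with mouse 4 at 7.84 and mice 1 to 3 at 8.34, 8.32 and 8.36. Rxrg had 0.849, with mouse 2 at 6.76 and the next lowest mouse at 7.81. Each of these 3 values was the low one of its gene, and each lay in a different mouse. Among the other genes, Myc had 0.885, with mouse 1 at 7.70 and the rest at 9.24 to 9.44. The bile duct marker Cd24a had 0.920, with mouse 1 at 7.19 and the rest at 8.94 to 9.09, and the muscle gene Mb had 0.852, with mouse 1 at 3.90 and the rest at 9.46 to 10.42. Nkg7, a lymphocyte gene, had 0.869, with mouse 3 at 7.81 and the rest at 6.53 to 6.70.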

How the results depend on the processing

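No receptor passed the adjusted spread test of limma under any alternative run, and 217 of 217 recomputed SDs of 22 named receptors stayed on the same side of the threshold. With all mice every receptor had an adjusted p of 0.977 or more (limma), so that count was nearly fixed in advance. It does not show that the SDs were steady, as that of Rora went from 0.19 to 0.0093 without mouse 3. The count of receptors with an unadjusted p under 0.05 was 2 with all mice, 4 with intensities under 64 raised to 64 (Vdr, Pgr, Nr5a1 and Nr4a3, in place of Pparg and Rorb), 1 with a prior fitted without robust estimation, and 0 to 2 when 1 mouse was left out, the 0 being without mouse 2. Their median relative spread was 0.98 with all mice, 1.14 with the floor of 64, and 0.899 (without mouse 3) to 1.00 (without mouse 4) when 1 mouse was left out. Over all probe sets 0 passed, and 6 of the 16969 left when the lowest 25% by mean level were left out. Genes whose probe sets share a difference numbered 19, against 51 with arrays shifted to the same median, 44 without that lowest 25%, 1 with the floor of 64 and 0 without probe sets ending in _s_at, _x_at or _a_at. They numbered 2, 4, 0 and 1 without mouse 1, 2, 3 and 4. None of the receptors was among them under the scalings, the filter, the floor or with a mouse left out. Of 160 recomputed target medians, 10 moved by more than 1 SD of the 4 mice. Before the shift to the same median, the array median of mouse 3 stood at 0.12 and that of mouse 4 at -0.14 relative to the other mice, and the shift removed these differences. The mean over a gene's probe sets raised the SD of Rarg from 0.10 to 0.75 and of Hnf4a from 0.05 to 0.18. No paired analysis was possible because the labels put all 4 samples in 1 group.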
